A study of Mus musculus with 58 samples.

Results

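Ky, the gene mutated in kyphoscoliotic ky mice, was examined together with 8 further genes of the sarcomere's Z-disc and its titin-linked stretch sensors: Igfn1, Flnc, Xirp1, Xirp2, Csrp3, Ankrd1, Ankrd2 and Ankrd23. These 9 genes were selected on earlier results of the same arrays, namely the fall of Ky in tumour-bearing mice and the relation of Ankrd2 to body mass. Of the 9, 8 were measured by a probe set of their own, out of 18820 genes in all. Ankrd23 lay only on 2 probe sets that carry a further gene symbol, so it has no value here.

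The arrays came from male CD2F1 mice (BALB/c x DBA/2), 6 to 8 weeks old and about 20 g at the start, that received C26 colon adenocarcinoma cells or a sham injection under the skin. C and T denote sham-injected and tumour-bearing mice without training, and C + WBV and T + WBV the same 2 states with whole-body vibration for 15 min a day at 45 Hz and 1 g. All mice were killed on day 19. The fast extensor digitorum longus (EDL) and the slow soleus (SOL) of 23 mice and the heart of 12 of them (3 a group) gave 58 arrays. The 23 mice were 6 of group C, 6 of C + WBV, 6 of T and 5 of T + WBV, and replicates are numbered here as in the muscles. The tumour is a transplanted line in 1 hybrid strain and 1 sex, so each group stands for that model alone.

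Ky is a peptidase-like protein of the Z-disc, the plate that anchors actin filaments at the ends of each sarcomere. Muscle of ky mutant mice fails to grow under load, and the protein binds Igfn1, filamin C (Flnc) and the Xin repeat proteins, which gather where myofibrils are strained or damaged. Csrp3, the muscle LIM protein, and the ankyrin repeat proteins Ankrd1, Ankrd2 and Ankrd23 sit at the Z-disc or on the titin spring, can also be found in nuclei, and are known to respond to stretch, unloading and denervation.

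Promoter sequences are shown for Ky and Ankrd2, which carry the opposite changes described below, and for Ankrd1, the close relative of Ankrd2 whose tumour difference in EDL did not pass the test. RefSeq promoters (build GRCm38.p6) matched 8 of the 9 members. Each line gives the 250 bases before an annotated start, read 5′ to 3′ on the gene's strand. The windows are chr9:102505888-102506137 (plus strand) for Ky, chr19:42035777-42036026 (plus) for Ankrd2 and chr19:36119845-36120094 (minus) for Ankrd1. The annotated Ky gene begins before its window and runs past it, and the annotated Ankrd2 gene begins within its own. All of the Ky letters and part of the Ankrd2 letters are thus transcribed from other starts. Capitals mark matches, on either strand, to the E-box (CANNTG, the motif of the myogenic factors) and to MCAT (CATTCC, the motif of TEAD factors).
Ky promoter: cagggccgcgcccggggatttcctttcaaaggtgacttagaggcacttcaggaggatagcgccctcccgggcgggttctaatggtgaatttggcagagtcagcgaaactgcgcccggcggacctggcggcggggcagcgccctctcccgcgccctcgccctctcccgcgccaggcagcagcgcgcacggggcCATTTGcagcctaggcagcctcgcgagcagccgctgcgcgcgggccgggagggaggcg
Ankrd2 promoter: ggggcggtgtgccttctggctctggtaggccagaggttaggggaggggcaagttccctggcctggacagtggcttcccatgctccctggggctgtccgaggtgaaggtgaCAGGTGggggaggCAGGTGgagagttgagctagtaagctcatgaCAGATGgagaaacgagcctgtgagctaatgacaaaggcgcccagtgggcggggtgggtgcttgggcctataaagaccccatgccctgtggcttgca
Ankrd1 promoter: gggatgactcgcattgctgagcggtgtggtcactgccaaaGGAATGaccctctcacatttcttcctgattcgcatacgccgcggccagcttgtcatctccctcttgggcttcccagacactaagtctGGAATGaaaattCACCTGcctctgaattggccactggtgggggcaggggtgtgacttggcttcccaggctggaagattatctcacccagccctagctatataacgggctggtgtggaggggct
The Ky window held 1 E-box, the Ankrd2 window 3 and the Ankrd1 window 1. MCAT was matched 2 times in the Ankrd1 window and not in the windows of Ky or Ankrd2. Of all 32851 promoters of this length, 66.2% held an E-box and 12.6% an MCAT motif. The CArG box (SRF) and the MEF2 box, held by 1.47% and 2.92% of all promoters, were not matched in these 3 windows. A match describes letters and not a bound site.

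In C mice the members differed between tissues, a contrast the selection did not use. Levels are log2 values after RMA, and since each gene has its own probe set, levels are compared between tissues and not between genes. Ky was highest in EDL (9.67 ± 0.17, SD, n = 6), lower in SOL (7.77 ± 0.36, n = 6) and lowest in heart (6.35 ± 0.16, n = 3). SOL minus EDL was -1.90 on the log2 scale (SE 0.40, adjusted p = 0.000192, limma with the mouse as a random block). Heart against SOL, a difference of -1.43 (SE 0.49), did not pass the threshold of 0.01 (adjusted p = 0.0201). The C arrays of SOL (7.36 to 8.35) and heart (6.17 to 6.47) nevertheless did not overlap. For each gene these tissue tests take 1 spread over all 58 arrays, tumour-bearing mice included (SD of Ky 1.31 in EDL of T mice). Their SEs are therefore not the spread of the C mice.

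Ankrd2 had the steepest tissue profile of the ankyrin repeat members. It stood at 11.35 ± 0.33 in SOL, 8.81 ± 0.47 in EDL and 3.76 ± 0.13 in heart, the last below the lowest array median of 4.515. SOL exceeded EDL 5.82-fold (log2 difference 2.54, SE 0.24, adjusted p = 1.01e-12). Ankrd1, the cardiac ankyrin repeat protein, ran the other way, with 12.70 ± 0.03 in heart against 8.22 ± 0.46 in EDL and 7.15 ± 0.68 in SOL. Heart exceeded EDL 21.6-fold (4.43, SE 0.59, adjusted p = 7.53e-09), whereas EDL and SOL did not differ past the threshold (-1.07, SE 0.47, adjusted p = 0.104).

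Csrp3 rose from EDL (8.51 ± 0.45) to SOL (10.47 ± 0.22, adjusted p = 3.19e-09), and heart at 11.33 ± 0.04 did not exceed SOL past the threshold (adjusted p = 0.0202). The heart C arrays (11.28 to 11.36) still lay above all SOL C arrays (10.20 to 10.73), and that test too takes its spread over all groups. Flnc, the actin cross-linker filamin C, was higher in SOL (10.90 ± 0.22) than in EDL (9.93 ± 0.18, adjusted p = 3.11e-06) and lower in heart (9.06 ± 0.09, adjusted p = 0.000244 against EDL). Xirp1 was 1.24 higher in SOL than in EDL (SE 0.31, adjusted p = 0.00245), a call lost without C replicate 4 (1.05, adjusted p = 0.0256). Xirp2 was 1.12 lower in heart than in EDL (log2 difference -1.12, SE 0.10, adjusted p = 8.39e-14), while EDL and SOL stood at 11.45 and 11.49. Igfn1 lay near or below the array medians everywhere (4.65 in EDL, 4.28 in SOL and 3.34 in heart), so its differences have little signal behind them.

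In all, 5 of the 8 members passed between SOL and EDL, beside 13.9% of all genes, 7 between heart and EDL, beside 31.9%, and 5 between heart and SOL, beside 25%. The tissues matched their labels. Myh4, Pvalb and Actn3, of fast fibres, read 12.92, 12.61 and 12.54 in EDL against 6.96, 8.25 and 7.12 in SOL. The other listed fast fibre genes stayed high in SOL. They were Tnnt3 (12.82 in EDL, 12.52 in SOL), Myh1 (12.33, 11.77), Tnni2 (12.59, 12.04) and Mylpf (12.17, 11.42). Myh7, of slow fibres, read 12.39 in SOL against 7.54 in EDL, and the atrial peptide Nppa 12.78 in heart against 3.85 and 3.42 in the muscles.

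**Figure D1:**
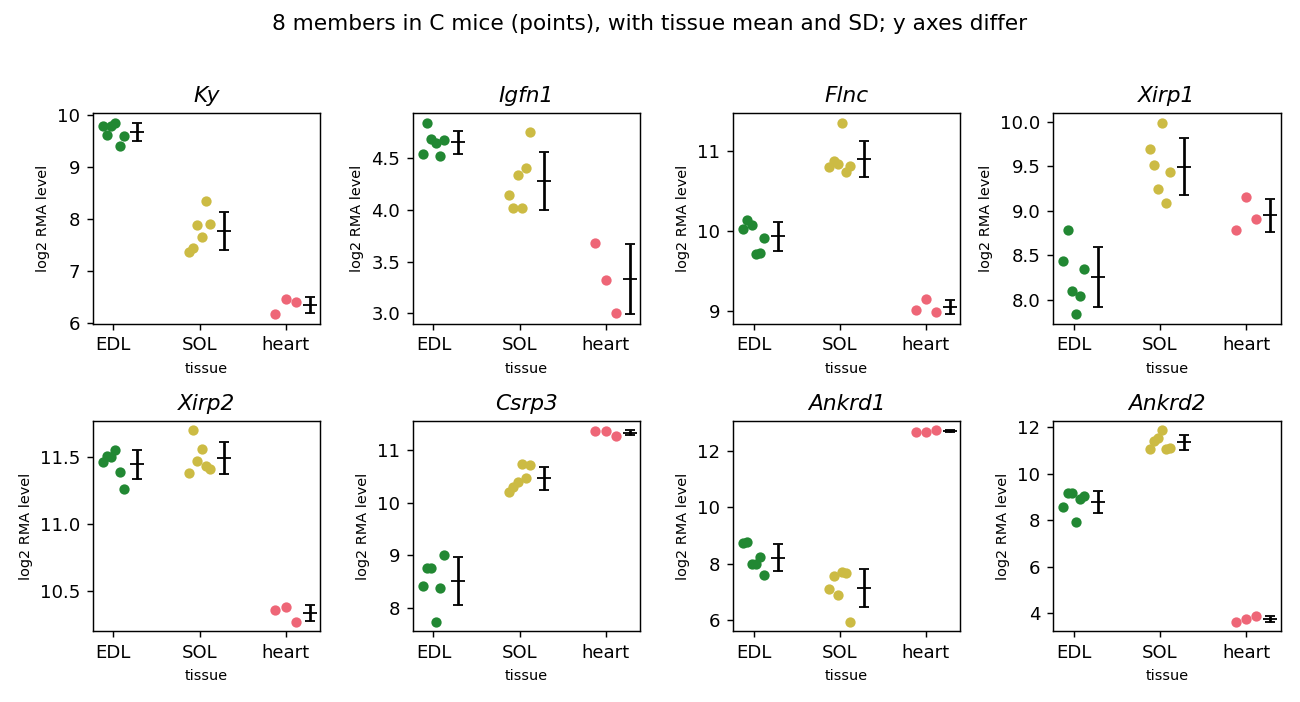
Log2 RMA level (y axis, its own range in each panel) of the 8 measured members in C mice by tissue (x axis), with 1 point per array and the mean and SD in black. Ky falls from EDL (mean 9.67) to heart (6.35), Ankrd2 is highest in SOL (11.35) and Ankrd1 in heart (12.70).

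Ky was lower in tumour-bearing mice in every tissue. In EDL the 6 C arrays ran from 9.40 through a median of 9.69 to 9.85, and the 6 T arrays from 4.59 through 5.17 to 8.16. In SOL the C arrays ran from 7.36 through 7.78 to 8.35 and the T arrays from 3.67 through 4.94 to 6.59. In heart the 3 C arrays read 6.17, 6.47 and 6.41, and the 3 T arrays 4.28, 3.97 and 4.05. C and T did not overlap in any of the 3 tissues. The mean differences of -4.13 in EDL, -2.81 in SOL and -2.25 in heart are given without a test because the genes were chosen on this fall. All 3 heart T arrays and 3 of 6 SOL T arrays lay below the lowest array median of 4.515, where RMA values carry little signal. The SOL and heart differences therefore have no exact fold and may understate the change. In EDL the lowest T array (4.59) and the T median (5.17) lay not far above that level, so the EDL fold is not exact either. In these whole-muscle samples, fewer cells of a type and less RNA per cell cannot be told apart.

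The trained mice gave the same direction, and since their Ky levels too were known when the genes were chosen, T + WBV against C + WBV is likewise described without a test for Ky. In EDL the 6 C + WBV arrays lay between 9.40 and 10.00 (median 9.57). The T + WBV arrays, replicates 1 to 5, read 6.15, 9.41, 5.14, 5.16 and 6.51. Replicate 2, whose body mass of 100.9% of the starting value was the highest among tumour-bearing mice, lay inside the C + WBV range, and the other 4 lay far below it. The mean difference was -3.17 (SE 0.56), and with each mouse left out in turn it ranged from -3.90, without replicate 2, to -2.84.

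In SOL the same 5 mice read 5.35, 7.29, 5.38, 5.31 and 5.36 against 7.39 to 7.95 (median 7.56) in C + WBV. Replicate 2 was again the highest, and the groups did not overlap. The difference was -1.84 (SE 0.38), and -2.23 without replicate 2. In heart the 3 T + WBV arrays read 5.54, 6.20 and 5.25 and the 3 C + WBV arrays 6.19, 6.28 and 6.48. That difference was -0.66 (SE 0.19), and -0.92 without replicate 2.

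**Figure D2:**
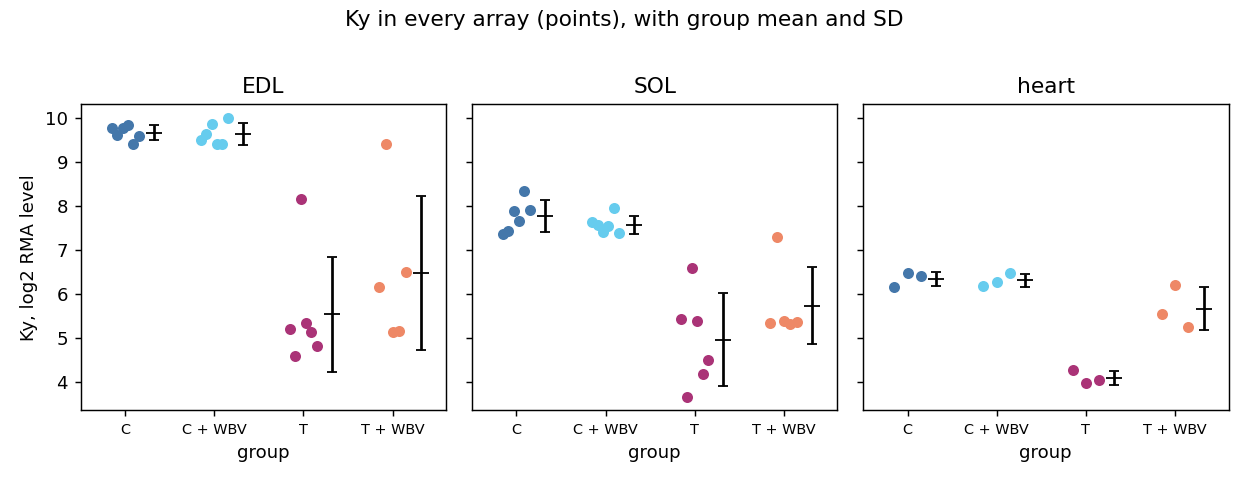
Log2 RMA level of Ky (y axis) in every array of EDL, SOL and heart by group (x axis), with the group mean and SD in black. T arrays lie below all C arrays in each tissue, and 1 T + WBV mouse lies near the controls in EDL (9.41), SOL (7.29) and heart (6.20).

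Of the partners of Ky, Flnc rose in the muscles and was lower in the tumour-bearing heart. Flnc in EDL ran from 9.56 to 10.27 in C + WBV (median 9.80), and 4 of 5 T + WBV arrays lay above that range, the lowest array of the group reading 10.17. The rise was 2.10-fold in EDL (log2 1.07, SE 0.18, adjusted p = 0.000288), a call held with each mouse left out in turn. In SOL the rise was 1.76-fold (0.81, SE 0.18, adjusted p = 0.00629), a call lost for 8 of the 11 mice left out singly, all but C + WBV replicates 3 and 4 and T + WBV replicate 2 (adjusted p up to 0.0280).

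In heart Flnc read 9.36, 9.13 and 9.27 in C + WBV and 8.49, 9.02 and 8.57 in T + WBV. The groups did not overlap, yet the difference of -0.56 (SE 0.12) missed the threshold (adjusted p = 0.0128) and passed without T + WBV replicate 2 (-0.73, adjusted p = 2.32e-05). The tumour effect on Flnc differed between heart and EDL by -1.58 (SE 0.28, adjusted p = 0.000573) and between heart and SOL by -1.32 (SE 0.28, adjusted p = 0.00760). The first call was lost without T + WBV replicate 1 (-1.43, adjusted p = 0.0160) or replicate 4 (-1.49, adjusted p = 0.0102). The second was lost for 8 of the 11 mice left out singly, with C + WBV replicates 3 and 4 and T + WBV replicate 2 the exceptions, and was weakest without T + WBV replicate 1 (-1.13, adjusted p = 0.127). In the untrained mice, described without a test, Flnc differed by 1.18 in EDL, 0.74 in SOL and -0.52 in heart.

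Flnc was the only member whose tumour effect passed a test between tissues, 1 of 8 for heart against EDL beside 0.760% of all genes and 1 of 8 for heart against SOL beside 0.324%. For SOL against EDL the count was 0 of 8 beside 0.149% (3 of 8 and 1916 of all genes at an unadjusted p under 0.05, limma). Those 3 were Ky (1.33, SE 0.59), Xirp2 (0.52, SE 0.12, adjusted p = 0.0225) and Ankrd2 (-0.93, SE 0.35). The genes were chosen on the values of Ky and Ankrd2, so nothing is read from the place of these 2 in that count. Heart minus EDL for Ky, likewise described without a test, was 2.45 (SE 0.71), and 3.01 without T + WBV replicate 2. This fit takes 1 spread per gene across tissues, whereas the SD of Ky was 1.31 in EDL of T mice and 0.16 in their hearts.

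Igfn1, the immunoglobulin and fibronectin repeat partner of Ky, differed by 0.35 in EDL (SE 0.13, adjusted p = 0.0578), 0.17 in SOL (adjusted p = 0.446) and 0.39 in heart (adjusted p = 0.30). None of these passed, and only the EDL value did so without C + WBV replicate 6 (0.46, adjusted p = 0.00643). The untrained differences were 0.43, 0.17 and 0.18.

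The Xin repeat genes parted from each other. Xirp1 in EDL ran from 7.90 to 8.57 in C + WBV (median 8.06) and from 8.61 to 10.26 in T + WBV (median 9.24), with no overlap. The rise was 2.53-fold (log2 1.34, SE 0.32, adjusted p = 0.00435), and it missed the threshold without C + WBV replicate 1 or without T + WBV replicate 3 or 5 (adjusted p up to 0.0175). In SOL Xirp1 differed by 0.84 (SE 0.41, adjusted p = 0.230), with C + WBV arrays spread from 8.54 to 11.83. Heart showed -0.11 (adjusted p = 0.753).

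Xirp2 fell in EDL and heart. Its EDL level was 11.51 ± 0.05 in C + WBV (n = 6) and 11.11 ± 0.32 in T + WBV (n = 5), a difference of -0.40 (SE 0.10, adjusted p = 0.00666). In heart it read 10.56, 10.31 and 10.35 against 9.91, 10.09 and 9.63, a difference of -0.53 (SE 0.10, adjusted p = 0.00783). Both calls sat close to the threshold. In EDL 9 of 11 mice left out singly ended the call, all but T + WBV replicates 2 and 5 (adjusted p up to 0.0334), and in heart 5 of 6 did, all but T + WBV replicate 2 (up to 0.0446). SOL showed 0.12 (SE 0.09, adjusted p = 0.459). The tests between tissues missed the threshold for SOL minus EDL (0.52, adjusted p = 0.0225) and heart minus SOL (-0.64, adjusted p = 0.0155), and passed without T + WBV replicate 2 (0.65, adjusted p = 0.000348, and -0.77, adjusted p = 0.000671).

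Csrp3, the muscle LIM protein, ran from 7.95 to 8.73 in EDL of C + WBV mice (median 8.50) and from 8.52 to 10.27 in T + WBV (median 9.78). The rise was 2.32-fold (log2 1.21, SE 0.31, adjusted p = 0.00612), and the call was lost for 9 of 11 mice left out singly, all but C + WBV replicate 2 and T + WBV replicate 2 (adjusted p up to 0.0248). In SOL the difference of 1.03 (SE 0.25) lay at the threshold (adjusted p = 0.0104) and passed without C + WBV replicate 3 (1.23, adjusted p = 0.00169) or T + WBV replicate 2 (1.25, adjusted p = 0.000796). In heart, where Csrp3 is high, it was -0.14 (SE 0.07, adjusted p = 0.250).

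Ankrd2 was higher in both muscles of tumour-bearing mice, and as its selection on body mass used the same T + WBV values, no test is given for it. In EDL the C + WBV arrays ran from 8.09 to 9.05 (median 8.65), and T + WBV replicates 1 to 5 read 10.22, 8.73, 11.55, 10.38 and 10.77. Replicate 2 again lay inside the range of the controls. The difference was 1.69 (SE 0.35), and 1.39 to 2.09 with each mouse left out in turn. In SOL it was 0.76 (SE 0.16, 0.67 to 0.92 with each mouse left out). Heart, with levels near 4, gave 0.34 (SE 0.22).

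Ankrd1 passed in no tissue. In EDL the T arrays, replicates 1 to 6, read 8.03, 10.88, 6.99, 8.84, 10.37 and 8.56, and the T + WBV arrays 7.25, 8.49, 8.39, 7.05 and 10.70. The C + WBV arrays lay between 7.80 and 8.27, inside the spread of the tumour-bearing mice. EDL gave a difference of 0.29 (SE 0.55, adjusted p = 0.776), SOL 0.96 (SE 0.55, adjusted p = 0.317) and heart -0.09 (SE 0.06, adjusted p = 0.418). The heart arrays of all 4 groups lay between 12.61 and 12.84.

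**Figure D3:**
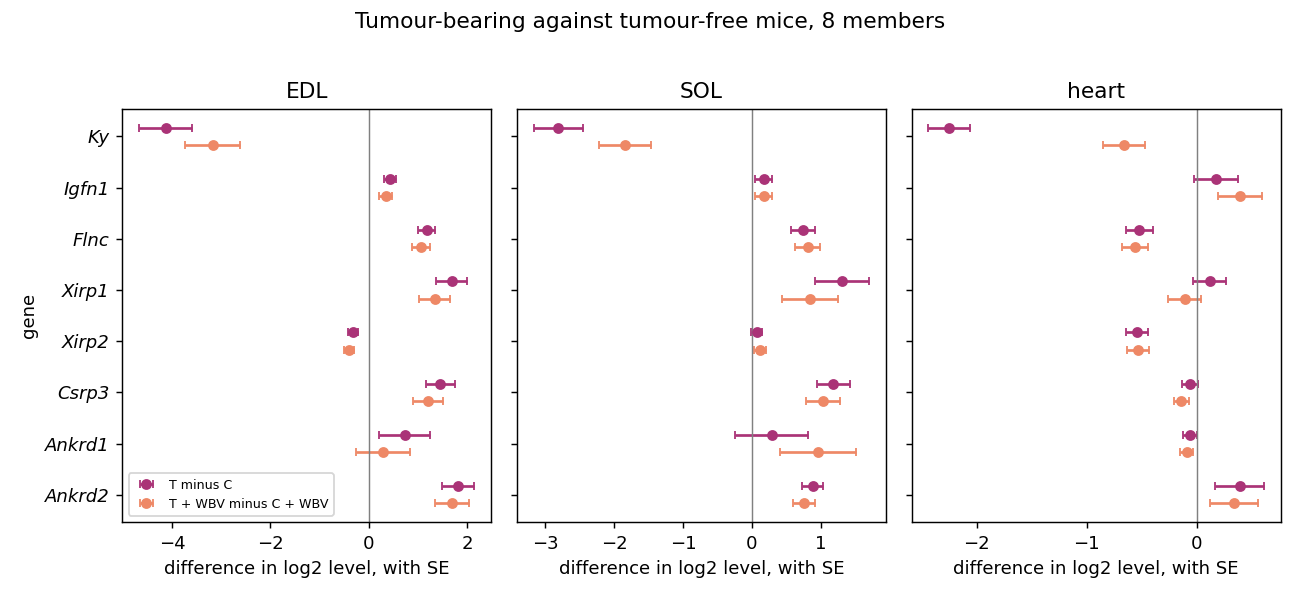
Difference in log2 level with its SE (x axis, its own range in each panel) of T minus C and of T + WBV minus C + WBV for the 8 members (y axis) in EDL, SOL and heart. Ky lies left of 0 in each tissue, and Flnc lies right of 0 in EDL (1.18 and 1.07) and SOL and left of it in heart (-0.52 and -0.56).

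**Figure D4:**
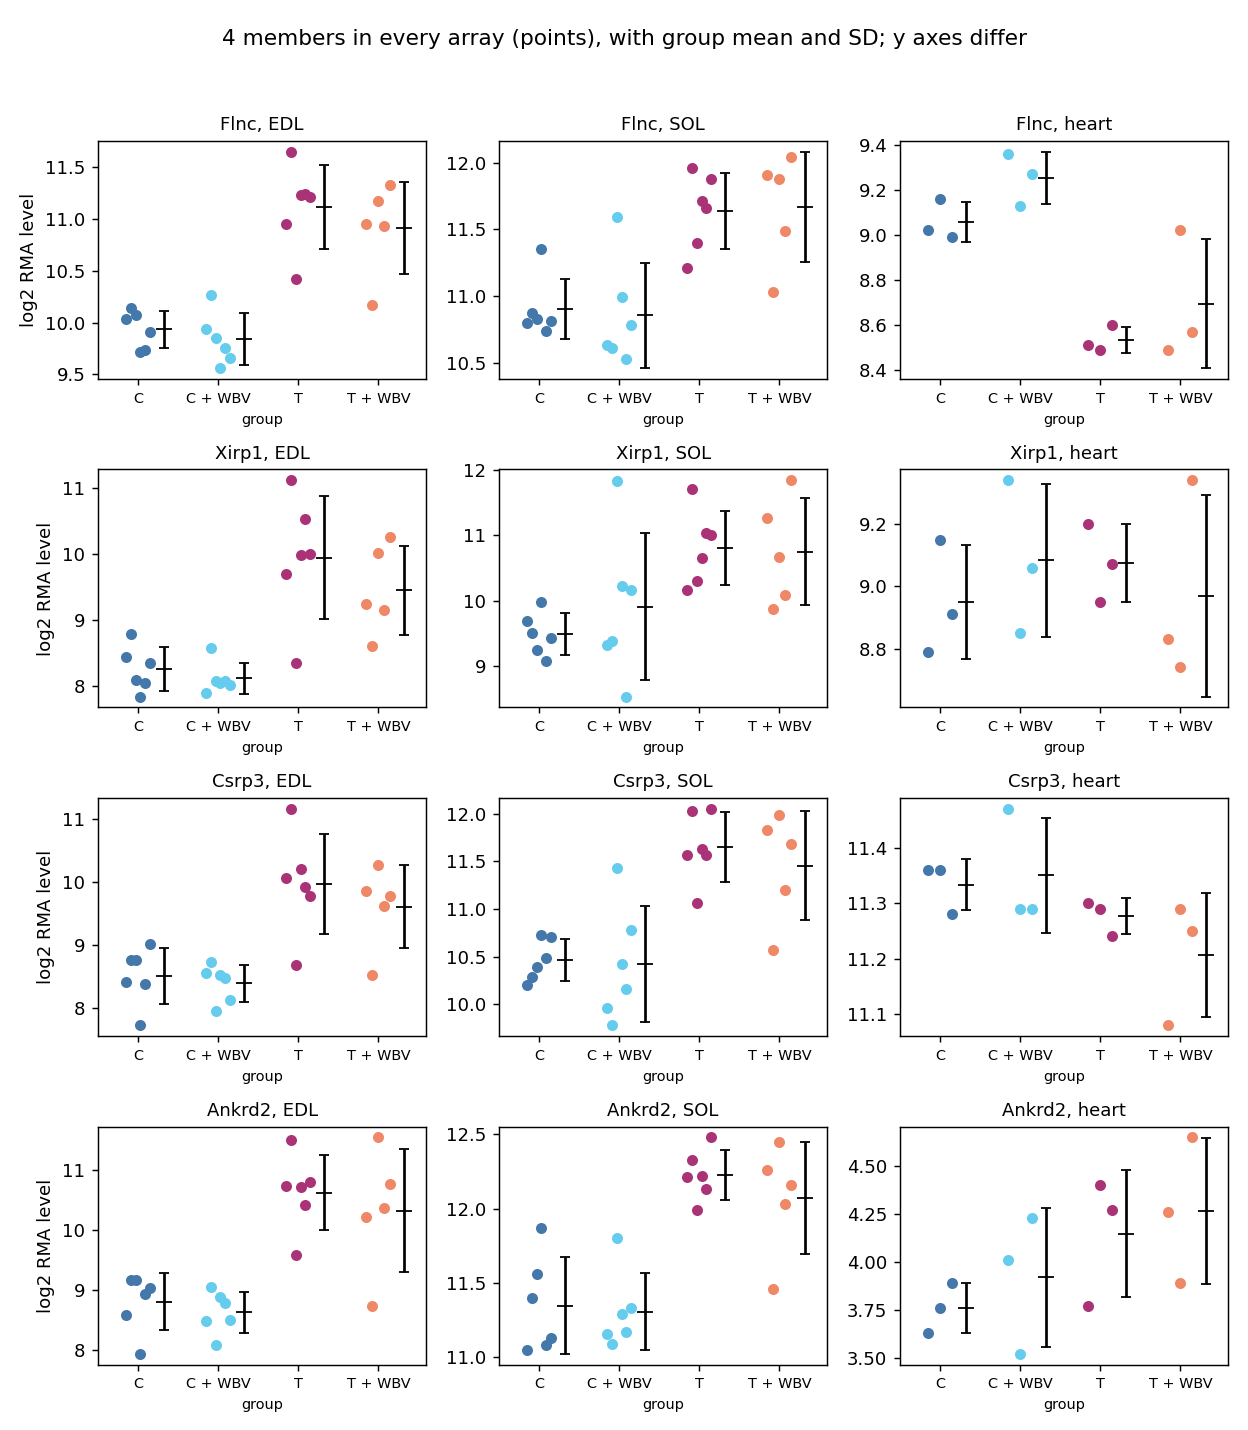
Log2 RMA level (y axis, its own range in each panel) of Flnc, Xirp1, Csrp3 and Ankrd2 in every array by group (x axis), with the group mean and SD in black. Tumour-bearing means are higher in EDL and SOL for all 4 genes, and in heart Flnc is lower (8.69 in T + WBV against 9.26 in C + WBV).

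Counted over the members, 6 of 8 passed in T + WBV against C + WBV in EDL (4 higher, 2 lower) beside 11.9% of all genes, 3 of 8 in SOL (2 higher, 1 lower) beside 3.61%, and 1 of 8 in heart (lower) beside 1.49%. The 8 had a median difference of 0.71 (EDL), 0.79 (SOL) and -0.13 (heart), beside -0.026, -0.017 and -0.007 over all genes. These counts hold Ky and Ankrd2, both past the threshold in EDL and SOL, on whose values the genes were chosen, so only the other 4 in EDL, 1 in SOL and 1 in heart come from members not picked on them. In T against C, on which the genes were chosen, 6 passed in EDL, 4 in SOL and 3 in heart beside 22.4%, 13.7% and 5.74% of all genes, and nothing is read from those counts. The untrained differences in EDL and SOL were 1.69 and 1.31 for Xirp1, 1.46 and 1.18 for Csrp3, and 1.82 and 0.88 for Ankrd2. Ankrd1 stood at 0.73 and 0.29, and Xirp2 at -0.32 and 0.07. In the untrained heart Xirp2 differed by -0.54, Ankrd2 by 0.39, Xirp1 by 0.12, and Csrp3 and Ankrd1 by -0.06 each.

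Other cell types and fibre markers moved with the tumour in the same arrays, and their part in these results was not tested. The mean level of 7 tendon and fibroblast genes lay between 7.87 and 8.76 in EDL of C + WBV mice and between 5.09 and 8.15 in T + WBV (2 of 7 lower past the threshold in EDL and 2 in SOL). Of 7 neutrophil genes 3 were higher in each tissue, their mean in heart rising from 3.34 to 3.50 in C + WBV to 4.23 to 5.19 in T + WBV, and of 7 macrophage genes 1 was higher in EDL, 1 in SOL and 5 in heart. Of 7 genes of denervated or regenerating fibres 2 were higher in EDL and 2 in SOL. The mean of 7 fast fibre genes lay between 12.57 and 12.63 in EDL of C + WBV and between 12.15 and 12.56 in T + WBV (2 of 7 lower), and in SOL between 10.16 and 11.25 and between 9.37 and 10.93 (0 of 7). The mean of 5 heart genes lay between 11.79 and 12.07 in the hearts of C + WBV mice and between 11.30 and 11.63 in those of T + WBV (0 of 5). Of the slow fibre and adipocyte genes none passed in any tissue, and of 5 endothelial genes 2 were higher and 1 lower in EDL, 1 lower in SOL and 1 higher in heart. Over all genes 11.9%, 3.61% and 1.49% passed in EDL, SOL and heart.

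Vibration itself was compared within tumour-bearing and within tumour-free mice. No member passed in T + WBV against T, in C + WBV against C or in their interaction in any tissue, beside 0% of all genes in each of these 9 comparisons (limma). The same count of 0 members came from the intensity-based moderated statistic and from a fit with 1 prior variance. At an unadjusted p under 0.05 the member counts were 0, 0 and 1 (EDL, SOL, heart) for T + WBV against T, 0 in each tissue for C + WBV against C, and 0, 0 and 1 for the interaction. Over all genes they were 902, 939 and 1407, then 627, 598 and 625, then 596, 838 and 1105.

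The member behind those 2 heart counts was Ky. The genes were chosen on the fall of Ky in T mice, so comparisons that use its T values are described here without a test. The 3 heart values of Ky in T + WBV (5.54, 6.20 and 5.25) lay above the 3 in T (4.28, 3.97 and 4.05), a difference of 1.56 (SE 0.19). All 3 T values lie below the lowest array median of 4.515, so the size of this difference is not exact. With each mouse left out in turn the difference ranged from 1.29, without T + WBV replicate 2, to 1.77, without T + WBV replicate 4, the mouse at 82.2%. The interaction was 1.59 (SE 0.27). The 3 T mice with a heart array weighed 77.5%, 79.8% and 82.6% of their start and the 3 T + WBV mice 82.2%, 87.8% and 100.9%, so body mass moved with the groups and its part was not tested. In EDL and SOL the Ky difference between T + WBV and T was 0.93 (SE 0.56) and 0.78 (SE 0.38). Among mice without a tumour the Ky differences were -0.03 in EDL (SE 0.54), -0.19 in SOL (SE 0.36) and -0.03 in heart (SE 0.19). These SEs take 1 spread over all 4 groups of a tissue and not that of the tumour-free mice. In EDL the SD of Ky was 0.17 in C and 0.25 in C + WBV, against 1.31 in T and 1.75 in T + WBV.

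Among the 11 tumour-bearing mice Ankrd2 and Ky followed body mass in opposite directions, and because the genes were chosen on such a relation the values stand as a description. In EDL Ankrd2 had r = -0.946 (rho = -0.891) and changed by -1.09 on the log2 scale per 10 percentage points of body mass. Leaving out T replicate 3 (91%) and T + WBV replicate 2 (100.9%), which lay farthest from the median mass, gave -0.791 over 9 mice and a slope of -1.15. Ky in EDL had r = 0.941 (rho = 0.818), 1.96 per 10 points, and without those 2 mice r = 0.71 with a slope of 0.93. Within the 6 T and the 5 T + WBV mice alone, r was -0.893 and -0.979 for Ankrd2 and 0.956 and 0.941 for Ky.

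In SOL the relation was shallower. Ankrd2 had r = -0.905 (rho = -0.809, -0.35 per 10 points) and without the same 2 mice r = -0.598 with a slope of -0.26. Ky had r = 0.775 (rho = 0.400, 1.00 per 10 points) and without them r = 0.213 with a slope of -0.03, so the SOL relation of Ky rested on those 2 mice. Some of the remaining SOL values of Ky, down to 3.67, lay below the lowest array median of 4.515, so this slope is not exact. Csrp3 had r = -0.819 in EDL and -0.847 in SOL, falling in size to -0.440 and -0.389 without them, and Flnc -0.844 and -0.602, falling to -0.353 and turning to 0.076. Xirp1 (-0.727 in EDL, -0.399 in SOL), Ankrd1 (-0.273, -0.096), Igfn1 (-0.391, 0.043) and Xirp2 (0.430, -0.252) were looser. In the slope fit 2 of 8 members, Ky and Ankrd2, were past the threshold in EDL beside 1.17% of all genes and 0 of 8 in SOL beside 0.335%, and nothing is read from these counts because the genes were chosen on this relation. With carcass mass in place of body mass, or without those 2 mice, 0 of 8 were past it in EDL.

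The 12 mice without a tumour, 6 of them the C mice of the contrast behind the choice of Ky, give a relation to body mass that the selection did not use. They weighed 107% to 114.5% of their start. No member had a slope on body mass past the threshold, 0 of 8 beside 0% of all genes in EDL and 0 of 8 beside 0% in SOL (limma, with 1 and 0 members and 1008 and 388 of all genes at an unadjusted p under 0.05). Ankrd2 changed by -0.43 per 10 points in EDL (SE 0.41, adjusted p = 0.965) and 0.49 in SOL (SE 0.32, adjusted p = 1), and Ky by -0.07 (SE 0.23, adjusted p = 0.988) and 0.44 (SE 0.33, adjusted p = 1). The member at the unadjusted level in EDL was Xirp1 (-0.79, SE 0.25, adjusted p = 0.912). Their masses span a narrow range, which widens these errors.

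**Figure D5:**
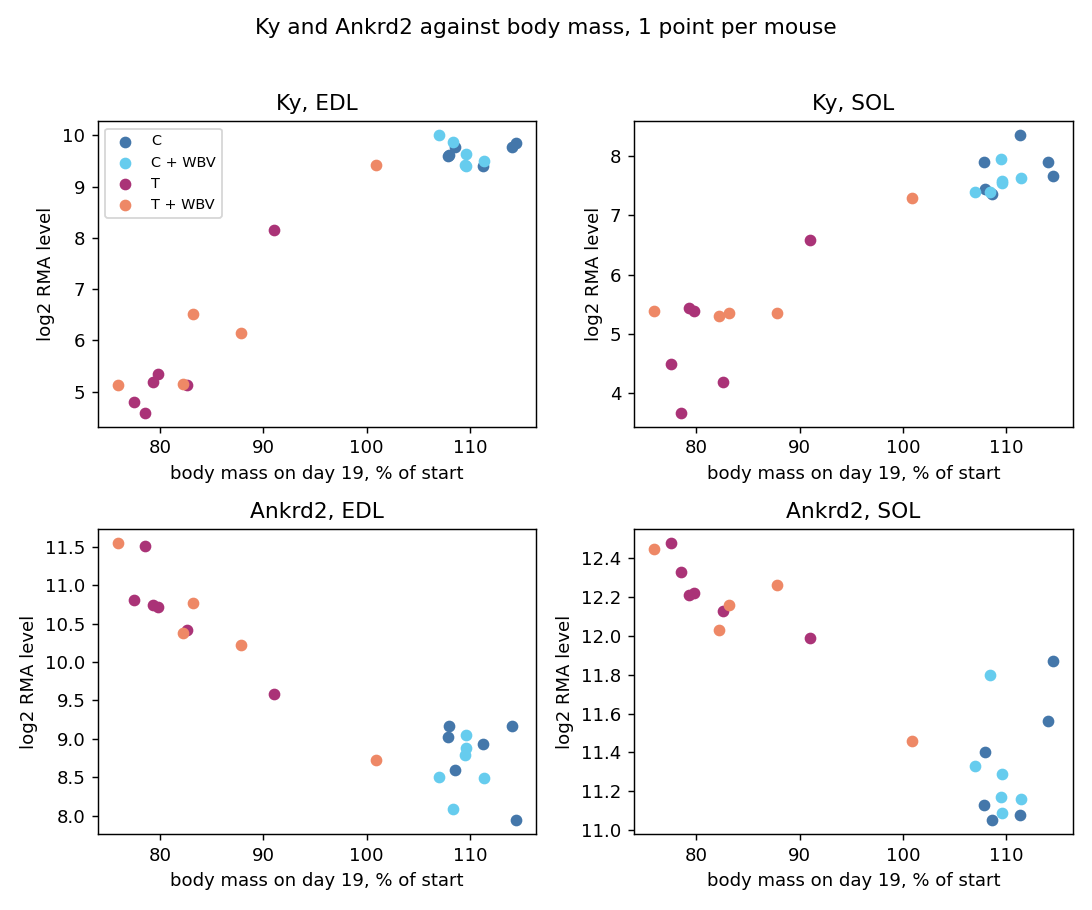
Log2 RMA level (y axis, its own range in each panel) of Ky and Ankrd2 in EDL and SOL against body mass on day 19 in percent of the start (x axis), with 1 point per mouse coloured by group. Tumour-bearing mice run from 75.9% to 100.9%, with Ky low and Ankrd2 high at the low end, and tumour-free mice form a cloud above 107%.

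The members also varied with each other within groups. After removal of the group means, Csrp3 and Ankrd2 had r = 0.905 over 23 EDL arrays and 0.801 over 23 SOL arrays, and Flnc and Ankrd2 0.789 and 0.828. Ky and Ankrd2 had -0.806 and -0.521. These arrays share their mice and the mouse's body mass, so the values describe the samples only. Between the EDL and the SOL of the same mouse, Ky had r = 0.794 over 23 mice, while the other 7 members lay between -0.125 and 0.439. Ky was the highest of its group in both muscles in T replicate 3 (8.16 in EDL, 6.59 in SOL) and T + WBV replicate 2 (9.41 and 7.29). The r without these 2 mice was not computed.

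Over the 46 EDL and SOL arrays, each gene taken relative to its C mean in that tissue, the genes most like Ky were Lsmem1 (r = 0.973), the Golgi mannosidase gene Man2a2 (0.971), the cAMP phosphodiesterase gene Pde4a (0.970), the calcium store gene Casq1 (0.970) and Cpe (0.967). The most opposite were the translation repressor gene Eif4ebp1 (-0.975) and the scaffold gene Cnksr1 (-0.973). Most like Ankrd2 were the small heat shock protein gene Hspb7 (0.930), the kinase gene Mknk2 (0.928), Cnksr1 (0.924), the proteasome subunit gene Psmd11 (0.922) and the helicase gene Ddx56 (0.917), and most opposite Man2a2 (-0.933) and Itm2a (-0.924). Man2a2 and Cnksr1 thus stood on opposite sides of the Ky and the Ankrd2 pattern. The group means were not removed here, so these r values carry the difference between tumour-bearing and tumour-free mice. They are also the extremes among 18820 genes.

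The surrounding pathways moved unevenly in T + WBV against C + WBV. Of 20 measured Z-disc proteins 3 were higher and 7 lower in EDL (median -0.25 beside -0.026 over all genes), and 0 and 2 in SOL. Of all genes 11.9% passed in EDL, 3.61% in SOL and 1.49% in heart. Among them the calsarcin Myoz3 fell by 2.01 in EDL (SE 0.41, adjusted p = 0.00130) and by 1.55 in SOL (adjusted p = 0.000989), while its relative Myoz2 rose by 0.62 in EDL (SE 0.14, adjusted p = 0.00246). The actin scaffold Palld fell by 1.09 in EDL (SE 0.19, adjusted p = 0.000304) and by 0.61 in SOL (adjusted p = 0.00817), and Pdlim5 rose by 0.31 in EDL (adjusted p = 0.000541). In heart 0 Z-disc genes were higher and 1 lower.

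Of 10 measured partners of filamin C and chaperones of its turnover, 3 rose and 0 fell in EDL (median 0.16, beside 11.9% of all genes) and 1 rose in SOL (beside 3.61%). The small heat shock genes Hspb1 (0.92, SE 0.20, adjusted p = 0.00188) and Hspb7 (0.91, SE 0.13, adjusted p = 7.02e-05) led in EDL. In heart 0 of the 10 passed, with Hspb1 at -0.10 and Hspb7 at -0.04.

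Of 15 genes of titin, the M-band and titin-linked signalling, 2 rose and 3 fell in EDL (median -0.07, beside 11.9% of all genes) and 1 rose in SOL (beside 3.61%). The ubiquitin ligase gene Trim63 (MuRF1), central to muscle wasting, rose by 2.05 in EDL (SE 0.35, adjusted p = 0.000311) and 1.11 in SOL (adjusted p = 0.00351), and Fhl3 by 0.44 in EDL (adjusted p = 0.00767). Trim55, a relative of Trim63, fell by 0.82 in EDL (adjusted p = 0.000901) and the small muscle protein gene Smpx fell by 0.52 (adjusted p = 0.00420). None of the 15 passed in heart.

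Of 14 costamere genes, which tie the Z-disc to the membrane, 3 rose and 1 fell in EDL (median 0.01, beside 11.9% of all genes) and 0 passed in SOL or heart. The fibronectin receptor subunit Itga5 rose by 0.71 (SE 0.15, adjusted p = 0.00184) and paxillin (Pxn) by 0.47 (adjusted p = 0.000156), while melusin (Itgb1bp2), a muscle stretch sensor, fell by 1.48 (SE 0.33, adjusted p = 0.00211). Of 12 dystrophin complex and repair genes 0 rose and 3 fell in EDL (median -0.12, beside 11.9% of all genes) and 0 passed in SOL or heart. The falls in EDL included sarcospan (Sspn), which fell by 0.84 (adjusted p = 0.00366), and Sgcd, which fell by 0.64 (adjusted p = 0.00759). Of 17 factors and targets of SRF and YAP 0 rose and 2 fell in EDL (median 0.21), a share near the 11.9% of all genes. In SOL 0 rose and 2 fell (beside 3.61% of all genes), and in heart 0 rose and 1 fell (beside 1.49%). The 2 in EDL were cardiac actin (Actc1), which fell by 2.20 (SE 0.30, adjusted p = 3.59e-05) and Mrtfa, a coactivator of SRF, which fell by 0.84 (adjusted p = 0.000677).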

How the data were processed

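RNA of EDL, SOL and heart was hybridised to 1-colour Affymetrix Mouse Gene 1.1 ST arrays, 1 per sample (58). The deposited values are log2 levels per probe set, which the authors made by RMA (background correction, quantile normalization and probe set summary). RMA compresses small differences at low levels, and the number of arrays limits the precision. Of 35556 probe sets, 21218 carried exactly 1 gene symbol, 1881 several and 12457 none. Values of a gene's own probe sets were averaged, giving 18820 genes. Array medians lay between 4.515 and 4.603, and no pair of arrays correlated above 0.9885.

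Groups followed the labels. Each tissue was fitted with limma 3.58.1 (R 4.3.3, statmod 1.5.0) with 1 mean per group and a mean-variance trend. Tissues were compared over all arrays with the mouse as a random block (correlation 0.137). Slopes on body mass carried a group term. P-values were adjusted by the method of Benjamini and Hochberg over all genes, with the study's threshold of 0.01. The labels name separate mice, and EDL, SOL and heart of 1 mouse are not independent. The members and gene lists were chosen with earlier results of these data known. Genes named outside the members were, per list, the 2 largest rises and the 2 largest falls past the threshold in EDL, and the 5 most and 2 least alike genes. The fits were tested on simulated data. Alternatives covered the variance prior, the moderated statistic, normalization, a level filter, probe set choice, array and replicate terms, and left-out mice. Promoter letters come from RefSeq tables.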

Additional observations from a re-analysis of the deposited data

Results flagged for a closer look

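The tumour effect on Flnc differed between tissues, with heart minus EDL at -1.58 and heart minus SOL at -1.32 on the log2 scale in T + WBV against C + WBV (limma, adjusted p = 0.000573 and 0.00760). The first call was lost for 2 of 11 mice left out singly, and the second for 8 of 11 (limma, adjusted p up to 0.127). 

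Among 64 groups of 5 or 6 values of a member, 6 held an array far from the rest by Dixon's criterion, where about 1 in 20 groups would by chance. In EDL of T mice Ky read 8.16 in replicate 3, the next array 5.35, and that mouse had kept 91% of its body mass. In SOL of T + WBV mice Ky read 7.29 in replicate 2, the next array 5.38, and that mouse had kept 100.9%. In EDL of C + WBV mice Igfn1 read 5.18 in replicate 6 (next 4.61) and Xirp1 8.57 in replicate 2 (next 8.08). In SOL Flnc read 11.35 in C replicate 4 (next 10.87) and Ankrd2 11.80 in C + WBV replicate 3 (next 11.33).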

How the results depend on the processing

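Over all alternatives 1809 values of the members were recomputed, and 0 called values reversed direction, while 67 were no longer past the threshold and 14 uncalled values passed. The 1809 include untested and uncalled values, which could not lose a call, so they are not the base for the 67. Of the untested values 24 moved by over 1 SD or SE. In EDL the call of Flnc in T + WBV against C + WBV held under every alternative run. The cause of a lost call was not tested. Fits to only the groups compared called 1487 genes in EDL, 150 genes and 1 member in SOL, and 43 genes and 0 members in heart, where 2235, 679 and 280 genes had been called. With 1 prior variance, T against C in heart held 644 genes and 1 member, and T + WBV against C + WBV in heart 125 genes and 0 members, while a second quantile normalization left 0 members there. A covariate for the arrays whose description ends in _2 left 370 genes and 1 member in SOL, and heart has no such arrays, so it was not run there. Without the mouse block the tissue differences held 18 genes (SOL minus EDL), 76 (heart minus EDL) and 39 with 0 members (heart minus SOL).

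Among tumour-bearing mice, carcass mass in place of body mass left 0 genes and 0 members with a slope in EDL and 2 genes in SOL. Without a group term 478 genes and 4 members had one in EDL and 186 genes and 2 members in SOL. Without the 2 mice farthest from the median mass, 0 genes and 0 members were past the threshold in EDL and 0 genes in SOL.

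Leaving out 1 mouse at a time gave, for T + WBV against C + WBV, 3 to 6 members and 1169 to 3318 genes in EDL, 0 to 4 members and 200 to 1454 genes in SOL, and 0 to 3 members and 53 to 1625 genes in heart. The highest gene counts came without T + WBV replicate 2. The tissue differences ranged over 0 to 1 members and 5 to 166 genes for SOL minus EDL, 0 to 2 members and 20 to 485 genes for heart minus EDL, and 0 to 2 members and 16 to 177 genes for heart minus SOL. In heart, T + WBV against T gave 0 to 1 members and 0 to 8 genes, and T against C 1 to 2 members and 368 to 694 genes. The slope among tumour-bearing mice gave 0 to 3 members and 2 to 221 genes in EDL and 0 to 2 members and 0 to 109 genes in SOL. Ky and Ankrd2, on whose values the genes were chosen, are among the members in all these counts.

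Of 56 same-numbered pairs, 7 had deviations correlated above 0.1 (r from -0.419 to 0.4 over all pairs). Pairs with different numbers were not compared, so this count cannot decide whether the replicate numbers pair the mice. With the replicate number as a block, T + WBV against C + WBV called 5 members and 1725 genes in EDL, 1 member and 479 genes in SOL, and 1 member and 225 genes in heart, and the comparisons of vibration called 0 members.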
